A study of Homo sapiens with 6 samples.

Results

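The HOXA cluster was followed on long non-coding RNA arrays of MDA-MB-231 cells through 81 of the 60596 target probes used. A probe was counted as a member when its name in the scanner files was nc- followed by one of 10 HOXA genes, or when it was an exon or intron of a RefSeq transcript of one of them. The members were 26 exon probes, 15 intron probes and 40 non-coding (nc) probes. The exon and intron probes covered 13 transcripts of HOXA2 to HOXA7, HOXA9 to HOXA11 and HOXA13. For 2 of these transcripts, NM_153632 (counted as HOXA3) and NM_153715 (counted as HOXA10), the symbol was taken from knowledge of older RefSeq records, since the RefSeq table used here did not list them. They account for 6 probes. Each nc name carries a HOXA gene and a serial number that increases from HOXA2 to HOXA13. The files give neither positions nor strands for these probes, and they do not define how introns were numbered, so a probe called intron 2 is named as the file names it. Each member had 1 spot per array.

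HOXA genes encode homeodomain transcription factors that give cells their position along the body axis. The genes lie in a row, and in embryos the genes at the 3′ end, such as HOXA2, are active earlier and nearer the head than the genes at the 5′ end, such as HOXA13. Polycomb and trithorax complexes keep the row silent or active in blocks in adult cells. Many non-coding RNAs are made between and antisense to the genes. Known examples are HOTAIRM1, HOXA11-AS beside HOXA11 and HOTTIP beside HOXA13, which recruits an activating histone methyltransferase complex. In breast cancer, HOXA genes such as HOXA5 are often silenced by DNA methylation.

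The study treated MDA-MB-231 cells, an established human breast cancer cell line, for 24 h and hybridized Cy3-labelled material of each treatment to 1 array. The control received PBS (phosphate-buffered saline). The other 5 treatments were LPS (bacterial lipopolysaccharide, the ligand of TLR4), the cytokines IL1b, TNFa and IL6, and TGFb, a growth factor that signals through SMAD proteins. No genotype difference, dose or passage is given in the labels, and each group is a single sample. Differences were therefore not checked against replicates, and p-values are not given. The series is a screen for non-coding transcripts that react to inflammatory stimuli. Having 6 arrays limits precision. In RNA from a culture, fewer expressing cells and less RNA per cell cannot be told apart.

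Values are log2 intensities after quantile normalization over the 6 arrays, and a probe was called detected when the scanner software marked it well above background. Each probe hybridizes with its own efficiency, so intensities were compared between arrays for the same probe and never between probes. Across all target probes, detection ranged from 33.2% with PBS to 68.4% with IL6. Negative control spots were marked well above background in 0.5% to 2.33% of cases with PBS, LPS, IL1b and TNFa, in 12.8% with IL6 and in 11.2% with TGFb. Of 36 marker, HOX partner and HOXA non-coding gene names looked up, only HOTAIRM1 was found among the named probes, so the identity of the cell line was not checked. The HOTAIRM1 probe was not well above background on any of the 6 arrays.

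Detected probes were spread from HOXA2 to HOXA13, next to undetected ones. Of the 81 members, 21 were detected on all 6 arrays, 24 on some and 36 on none. These shares, 25.9% on all arrays and 44.4% on none, stood beside 31.5% and 27.8% over all target probes. Of the 1009 other named probes, outside the HOX clusters, 13.9% were detected on all arrays and 48.7% on none. By class, 4 of 26 exon probes (15.4%), 4 of 15 intron probes (26.7%) and 13 of 40 nc probes (32.5%) were detected on all 6 arrays. No array detected 16 exon probes (61.5%), 6 intron probes (40.0%) and 14 nc probes (35.0%). In the other HOX clusters the share of probes detected on no array was 21.2% for HOXB, 26.9% for HOXC and 24.7% for HOXD. Their shares detected on all 6 arrays were 37.6%, 35.6% and 23.3% in the same order. The differences between clusters were not tested. With PBS, the control, 4 exon, 4 intron and 14 nc probes of the HOXA cluster were detected. These were 22 in all or 27.2%, against 33.2% of all target probes and 15.2% of the other named probes. The share with PBS was 41.2% for HOXB, 36.5% for HOXC and 28.8% for HOXD.

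Exon signal on all 6 arrays was seen for 3 of 10 genes. These were HOXA3, needed for the thymus and parathyroid, HOXA10, a regulator of the uterus, and HOXA11, which patterns the uterus and the middle segment of the limb. In each of these genes, at least 1 exon probe was not detected on all arrays. Of 7 HOXA3 exon probes, exon 3 of NM_153631 and exon 2 of NM_153632 were detected on all arrays and 4 on none. HOXA11 was detected on all arrays at exon 1 and on none at exon 2. HOXA10 was detected on all arrays at exon 1 of NM_018951, and on none at exon 2 of that record or exon 1 of NM_153715.

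No exon probe of HOXA4, HOXA9 or HOXA13 was detected on any array. HOXA9 is a driver of blood stem cell growth and of leukaemia, and its exons 1 and 2 lay between 2.93 and 3.14 on the 6 arrays, where the median negative control spot lay between 2.93 and 3.14. HOXA13 patterns the hand, foot and genital tract, and its exons 1 and 2 lay between 2.94 and 3.92. The remaining 4 genes had exon probes marked as detected on some arrays only, and none of these probes exceeded the 99th percentile of negative control spots on any array. HOXA2, which patterns the branchial arches, was detected at exon 1 with IL6. HOXA5 exon 2 was detected with IL6 and TGFb, and HOXA6 exon 2 with TGFb. HOXA7, known as a repressor of keratinocyte differentiation genes, was detected at exon 1 with IL6 and TGFb and at exon 2 with IL1b and TGFb.

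Intron probes did not always go with exon probes. For 4 genes (HOXA6, HOXA10, HOXA11 and HOXA13) an intron probe was detected on all 6 arrays, and for 2 of them, HOXA6 and HOXA13, no exon probe was. HOXA13 intron 2 lay at 9.45 under PBS, 8.55 under LPS, 8.49 under IL1b, 8.29 under TNFa, 8.33 under IL6 and 10.06 under TGFb. It was well above background everywhere while both HOXA13 exons were at background everywhere. HOXA6 intron 2 lay at 8.46 under PBS, 8.17 under LPS, 8.12 under IL1b, 7.82 under TNFa, 8.95 under IL6 and 9.29 under TGFb. Its exon 1 was detected on no array. Without stated strand and position, signal on an intron probe cannot be told apart from signal of another transcript that crosses it.

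Of the 9 genes that nc probes are named for, 8 had at least 1 nc probe detected on all 6 arrays, the exception being HOXA5, whose probes nc-HOXA5-67 and nc-HOXA5-68 were detected on none. The others were HOXA2 (1 of 1 probe), HOXA4 (3 of 6), HOXA6 (1 of 4), HOXA7 (1 of 3), HOXA9 (2 of 5), HOXA10 (1 of 1), HOXA11 (1 of 11) and HOXA13 (3 of 7). HOXA4, HOXA9 and HOXA13 each combined nc probes detected on all arrays with exons detected on none. For HOXA4, the 2 exon probes and the intron probe were detected on no array. The probe nc-HOXA4-61 lay at 12.61 under PBS, 11.83 under LPS, 12.13 under IL1b, 12.18 under TNFa, 12.05 under IL6 and 12.32 under TGFb. The neighbour nc-HOXA4-63 lay at 12.10 under PBS, 11.71 under LPS, 11.64 under IL1b, 11.79 under TNFa, 12.26 under IL6 and 12.03 under TGFb. These 2 probes varied little between arrays, over a range of 0.78 and 0.62. The probe between them in number, nc-HOXA4-62, was detected with IL6 (5.84) and TGFb (5.55) alone, and nc-HOXA4-64 on no array.

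HOXA11 and HOXA13, side by side at the 5′ end, differed at exon 1, and the 250 bases before their annotated starts are shown because they are the start regions of an exon 1 detected on every array and of a gene with no detected exon. Both come from RefSeq, GRCh38.p14, minus strand, written 5′ to 3′ with each CG dinucleotide in capitals, since DNA methylation in human cells falls mainly on CG dinucleotides. The HOXA11 window is chr7:27185233-27185482 and the HOXA13 window is chr7:27200092-27200341.
HOXA11: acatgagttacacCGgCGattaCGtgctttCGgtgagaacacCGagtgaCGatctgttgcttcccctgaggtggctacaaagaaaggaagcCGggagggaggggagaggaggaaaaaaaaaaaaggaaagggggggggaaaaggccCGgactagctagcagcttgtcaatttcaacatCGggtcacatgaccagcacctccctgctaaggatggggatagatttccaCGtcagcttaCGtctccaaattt
HOXA13: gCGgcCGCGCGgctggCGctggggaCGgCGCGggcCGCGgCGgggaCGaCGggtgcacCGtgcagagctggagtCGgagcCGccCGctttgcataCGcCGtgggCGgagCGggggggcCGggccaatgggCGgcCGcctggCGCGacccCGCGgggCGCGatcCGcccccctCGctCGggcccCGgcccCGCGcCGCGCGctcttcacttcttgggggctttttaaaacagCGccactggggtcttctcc
The HOXA11 window held 11 CG dinucleotides, a count that 50.3% of 35116 windows of the same length reached, and the HOXA13 window held 40, which 2.16% reached. The other genes were not ordered in this way. HOXA10, with an exon 1 detected on all arrays, had windows with 19 and 24. HOXA9 and HOXA4, with no detected exon, had 20 and 26, and HOXA3 windows ran from 0 to 26. The arrays measured no methylation, and the counts describe the sequences alone.

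Differences from PBS were taken over members detected with both PBS and the treatment, and a member was counted as higher or lower at a difference of at least 2-fold (1 on the log2 scale). With LPS, 0 of 22 members were at least 2-fold higher and 4 were at least 2-fold lower, beside 6.87% and 5.22% of 19539 probes over the whole array. All 22 lay below PBS, beside 11358 of the 19539 probes, with a median of -0.68 against -0.15 over all probes. With IL1b, 0 of 22 were higher and 5 lower, beside 9.43% and 9.62% of all probes. Again all 22 lay below PBS, beside 11918 of 19852 probes over the whole array, with a median of -0.74 against -0.24. With TNFa, 0 of 21 were higher and 6 lower, beside 9.06% and 8.92%, and the median was -0.66 against -0.21. Of the 21, nc-HOXA13-100 alone lay above PBS with TNFa (0.22), and over the whole array 11849 of 19624 probes lay below.

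With IL6 and TGFb members lay on both sides of PBS, as did probes over the whole array. With IL6, 3 of 22 members were at least 2-fold higher and 4 lower, beside 9.64% and 20.4% of all probes, and the median was 0.28 against -0.11. With TGFb, 1 of 22 was higher and 4 lower, beside 10% and 18.9%, with a median of 0.18 against -0.06. With IL6, 16 members lay above PBS and 6 below, and with TGFb 13 lay above and 9 below. Over all probes, 8934 lay above and 11033 below with IL6, and 9188 above and 10308 below with TGFb. Setting each array to its 75th percentile moved the IL6 counts to 4 higher and 3 lower and the TGFb counts to 6 higher and 1 lower. Under that scaling the split over all probes moved to 15.9% higher and 15.9% lower with IL6 and to 18.3% and 13.6% with TGFb, and the median over all probes moved from -0.11 to 0.07 and from -0.06 to 0.16. The 5 comparisons share the single PBS array and are not separate observations. Against the median of the other 5 arrays in place of PBS, the medians were -0.41 (LPS), -0.44 (IL1b), -0.30 (TNFa), 0.85 (IL6) and 0.76 (TGFb). The median over all probes under that control was not computed.

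Exon, intron and nc probes all had medians below PBS with LPS, IL1b and TNFa. With LPS the class medians were -0.59 for 4 exon probes, -0.77 for 4 intron probes and -0.72 for 14 nc probes. With IL1b they were -0.81, -0.85 and -0.70, and with TNFa -0.83, -1.21 and -0.52, the last over 13 nc probes. With IL6 they were 0.02 for exon, 0.33 for intron and 0.30 for nc probes, and with TGFb -0.76, 0.39 and 0.23. The exon medians rest on HOXA3, HOXA10 and HOXA11 alone, and with IL6 2 of these 4 probes lay above PBS and 2 below. The other HOX clusters were also below PBS with LPS, at medians of -0.64 for HOXB, -0.48 for HOXC and -0.68 for HOXD. In the same order, their medians were -0.80, -0.73 and -0.79 with IL1b and -0.70, -0.62 and -0.73 with TNFa. With IL6 their medians were -0.80, -0.33 and -0.51, beside 0.28 for HOXA. With TGFb they were -0.64, -0.06 and -0.07, beside 0.18 for HOXA. These differences between clusters were not tested. The other named probes of the array had medians of -0.28 over 144 probes with LPS, -0.53 over 149 with IL1b and -0.39 over 144 with TNFa. Their medians were 0.05 over 151 probes with IL6 and 0.04 over 147 with TGFb.

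In the HOXA2 to HOXA4 stretch, nc-HOXA4-65 was at least 2-fold lower with every treatment, the 1 such member of the 21 detected on all 6 arrays. It lay at 9.14 under PBS, 8.09 under LPS, 7.53 under IL1b, 7.82 under TNFa, 6.64 under IL6 and 7.62 under TGFb. The difference was smallest with LPS (2.08-fold) and largest with IL6 (5.66-fold), where the value lay under the 99th percentile of negative control spots placed on the same scale (6.71). With 75th percentile scaling the TGFb difference was -0.98, short of 2-fold. The share of all probes lower with every treatment was not computed. The 5 differences rest on the same PBS value. With the remaining arrays' median as control, those with LPS (0.47) and TNFa (0.20) turned positive and those with IL1b (-0.29) and TGFb (-0.20) fell short of 2-fold. The probe nc-HOXA2-60 lay at 7.30 under PBS, 6.39 under LPS, 6.57 under IL1b, 6.78 under TNFa, 5.38 under IL6 and 7.90 under TGFb. IL6 was the low array, 3.77-fold below PBS and also under that percentile, and TGFb was above PBS by 0.60. HOXA3 exon 2 of NM_153632 was 2.25-fold lower with IL1b, 2.07-fold with TNFa and 2.13-fold with TGFb and differed by 0.26 with IL6. These 3 calls rest on the PBS array and were lost with the remaining arrays' median as control (-0.29, -0.17 and -0.21), and the TGFb call also with 75th percentile scaling (-0.49). HOXA3 exon 3 of NM_153631 stayed within 0.82 of PBS on every array.

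In the middle of the cluster few members were far from PBS. The probe nc-HOXA7-73 lay at 12.14 under PBS, 11.97 under LPS, 11.98 under IL1b, 12.05 under TNFa, 12.22 under IL6 and 12.71 under TGFb, a range of 0.74. For nc-HOXA9-77 the differences ran from -0.43 with LPS to 0.81 with IL6, and for nc-HOXA9-81 from -0.72 with TNFa to 0.17 with TGFb. For nc-HOXA6-70 they ran from -0.91 with IL1b to 0.30 with IL6. The probe nc-HOXA6-69 was not detected with PBS or LPS and lay at 5.21 under IL1b, 5.86 under TNFa, 7.77 under IL6 and 7.80 under TGFb. Against its own undetected PBS value of 5.22, that is 5.86-fold higher with IL6 and 6.01-fold with TGFb. The 99th percentile of negative control spots lay at 6.30 with PBS, so these ratios to an undetected value are not lower bounds. HOXA9 intron 2 was detected with IL1b (5.86), TNFa (5.86), IL6 (6.89) and TGFb (6.78) but not with PBS or LPS. The HOXA9 exons were not detected on those arrays. With IL6, HOXA9 intron 2 lay 2.46-fold above its undetected PBS value of 5.59, which is again no lower bound.

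The exon 1 probes of HOXA10 (NM_018951) and HOXA11 lay on opposite sides of PBS with IL6 and TGFb. HOXA10 exon 1 lay at 8.80 under PBS, 8.26 under LPS, 8.11 under IL1b, 7.96 under TNFa, 7.15 under IL6 and 7.36 under TGFb. It was 3.15-fold lower with IL6 and 2.73-fold lower with TGFb. Both fell short of 2-fold with the remaining arrays' median as control (-0.96 and -0.75), and the TGFb difference also with 75th percentile scaling (-0.87). HOXA11 exon 1 lay at 10.13 under PBS, 9.49 under LPS, 9.33 under IL1b, 9.49 under TNFa, 11.70 under IL6 and 11.21 under TGFb. It was 2.98-fold higher with IL6 and 2.12-fold higher with TGFb. These 2 exon 1 probes were below PBS together with LPS, IL1b and TNFa, with differences from -0.55 to -0.84. The exon 2 probes of both genes were detected on no array, so the values describe 1 probe per gene. Which transcript gave the exon 1 signal was not tested. HOXA10 intron 2 of NM_153715 did not follow HOXA10 exon 1 with IL6 (0.50) or TGFb (0.17) and was 2.41-fold lower with TNFa. Intron 2 of NM_018951 was detected on no array.

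HOXA11 intron 2 was 2.06-fold lower with LPS, 2.26-fold with IL1b and 2.40-fold with TNFa, and lay within 0.17 of PBS with IL6 and TGFb. With the remaining arrays' median as control the LPS difference was -0.95, short of 2-fold. Next to it in name, nc-HOXA11-83 differed by -1.06 with IL1b, 0.54 with IL6 and 0.29 with TGFb. For nc-HOXA10-82 the differences were -1.07 (IL1b), -1.04 (TNFa), 0.34 (IL6) and 0.27 (TGFb). The probe nc-HOXA11-91 was detected on 5 arrays, not with TNFa, and was 2.00-fold lower with LPS. Of the other 9 nc-HOXA11 probes, 3 were detected on no array and 6 on some. Among these, nc-HOXA11-89 was detected with IL1b (6.82) and IL6 (4.32) alone. With IL1b it lay 2.54-fold above its undetected PBS value of 5.47, which is not a lower bound.

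The HOXA13 end held the most variable member. The probe nc-HOXA13-100 lay at 9.58 under PBS, 7.79 under LPS, 9.09 under IL1b, 9.80 under TNFa, 11.31 under IL6 and 7.28 under TGFb, a range of 4.03 where the median range of the 21 members detected on all arrays was 1.43. LPS and TGFb were the low arrays and IL6 the high one. It was 3.48-fold lower with LPS, 4.93-fold lower with TGFb and 3.31-fold higher with IL6. The neighbours in number, nc-HOXA13-99 and nc-HOXA13-101, were detected on no array. The probe nc-HOXA13-97 lay at 8.99 under PBS, 8.34 under LPS, 8.25 under IL1b, 8.34 under TNFa, 10.20 under IL6 and 9.78 under TGFb, and was 2.31-fold higher with IL6. The probe nc-HOXA13-98 stayed between -0.74 (LPS) and 0.39 (IL6) of PBS. HOXA13 intron 2 was 2.24-fold lower with TNFa, 2.18-fold lower with IL6 and differed by 0.61 with TGFb. The TNFa difference was -1.20 with cyclic loess, -1.19 with 75th percentile scaling and -0.26 with the remaining arrays' median as control. The IL6 difference fell short of 2-fold with cyclic loess (-0.93), with 75th percentile scaling (-0.75) and with the remaining arrays' median as control (-0.22).

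Gains and losses of detection were counted separately. Of 59 members not detected with PBS, 0 gained detection under LPS, 6 under IL1b, 3 under TNFa, 21 under IL6 and 14 under TGFb. Over all probes the shares that gained detection were 12.6%, 24.3%, 16.7%, 53.0% and 36.1% in the same order. A gain was a change of the detection mark, and the signal did not always rise with it. With IL1b, nc-HOXA6-69 (5.21 against 5.22 under PBS) and nc-HOXA7-75 (5.52 against 6.46) gained detection without a brighter signal. With IL6, so did nc-HOXA7-75 (4.19 against 6.46) and nc-HOXA11-89 (4.32 against 5.47). The same held for nc-HOXA6-71 (5.46 against 5.69) and HOXA7 exon 2 (5.29 against 5.52) with IL1b. It also held for nc-HOXA7-75 with TNFa (6.33 against 6.46). With TGFb, it held for HOXA5 exon 2 (4.67 against 4.82) and nc-HOXA6-71 (5.29 against 5.69). The remaining gains came with a brighter signal than with PBS, such as nc-HOXA6-69 with IL6 (7.77 against 5.22). Of 22 members detected with PBS, 1 was lost, nc-HOXA11-91 under TNFa, beside losses of 2.75%, 1.19%, 2.32%, 0.602% and 2.93% of all probes. IL6 alone detected 7 members, TGFb alone 1, and IL6 with TGFb but no other array 9. These patterns were not counted over all target probes, so they are not read as particular to the members. Of all target probes, 68.4% were detected with IL6 and 56.3% with TGFb. On these 2 arrays the negative control spots were also brighter. Asking instead for a signal above the 99th percentile of negative control spots of the same array left 22 members with IL6 in place of 43 and 24 with TGFb in place of 36, beside 23 with PBS. Over all probes 32.8% lay above that limit with IL6, 35.1% with TGFb and 36.9% with PBS. Of the members gained with IL6 or TGFb, nc-HOXA6-69 and HOXA9 intron 2 alone were above that limit, 2 with IL6 and 2 with TGFb. With IL1b, nc-HOXA11-89 (6.82) and HOXA9 intron 2 (5.86) were above it (5.60). With TNFa, nc-HOXA7-75 was above it (6.33 against 5.94), as it was with PBS, though not detected there (6.46 against 6.30). The part of background in the other gains was not tested.

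Treated arrays were also compared with each other, without PBS. Over the 21 members detected on all 6 arrays, 0 differed 2-fold between IL1b and TNFa, beside 1.05% of all probes detected on all arrays. From LPS to IL1b and from LPS to TNFa 1 member did, nc-HOXA13-100, beside 0.739% and 1.57%. Between IL6 and TGFb 4 did, 2 higher and 2 lower with TGFb, beside 8.48%. From LPS to IL6, 11 members were at least 2-fold higher and 3 lower, beside 14.7% and 11.1% of 19077 probes detected on all arrays. From IL1b to IL6 the counts were 11 and 1, beside 16.0% and 9.96%, and from TNFa to IL6 10 and 2, beside 15.1% and 11.0%. TGFb had 7 higher and 0 lower than with LPS (14.7% and 16.9% of all probes). It had 9 higher and 1 lower than with IL1b (16.2% and 15.1%), and 9 higher and 1 lower than with TNFa (14.9% and 13.4%). These pairs reuse the IL6 and TGFb arrays. IL6 was the brightest array for 12 of the 21 members and TGFb for 5, with PBS brightest for the other 4. Over all probes detected on all arrays, IL6 was brightest in 16.8%, TGFb in 14.8% and PBS in 29.2%. IL6 and TGFb are also the arrays with the most negative control spots above background, and the part of this in the differences was not tested. Of the 21 members, 19 were above the 99th percentile of negative control spots on every array. The exceptions were nc-HOXA2-60 and nc-HOXA4-65.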

How the data were processed

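Per the labels, total RNA was extracted with TRIzol, and the labels describe a NimbleGen-format array. The deposited files have the columns of Agilent Feature Extraction, in 1 colour, for 62738 spots. The conflict is unresolved and the files were followed. The deposited intensity per spot is background-corrected, per the file headers. The authors also deposited log2 values that the submitters' processing notes ascribe to RMA, whose version the sources used here do not give.

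Spots marked as feature outliers and control spots were left out, which left 60596 of 60639 probes, and no spot was saturated. The log2 intensity was quantile normalized with limma 3.58.1 in R 4.3.3. For members, it differed from the authors' table by at most 0.00168. With 1 array per group no test was possible. Named probes were the exon and intron probes of the 10 genes, at most 12 nc probes detected on all arrays with their values, the 5 called members furthest from PBS each way per treatment, and members called alike in all 5 treatments or oppositely in 2. Other nc probes were named after their values were seen. Further HOXA probes are not reported here. The members and lists were chosen with earlier results of these data known. RefSeq symbols (GRCh38.p14) were matched for 11 of 13 transcripts. The counting rule was tested on simulated arrays. Alternatives were 75th percentile scaling, cyclic loess, the authors' table, a 1.5-fold limit, stricter detection and other controls.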

Additional observations from a re-analysis of the deposited data

Results flagged for a closer look

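The probe nc-HOXA13-100 was called in opposite directions with different treatments. It was higher than PBS by 1.73 with IL6, while it differed by -1.80 with LPS and by -2.30 with TGFb, on 1 array each, and the difference between treatments was not tested.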

How the results depend on the processing

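No paired analysis was possible because each group holds 1 array. Values from the authors' table kept all 27 named differences at 2-fold or more in the same direction, cyclic loess 26, 75th percentile scaling 23 and a control made of the median of the 5 remaining arrays 15, and the causes were not tested. At 1.5-fold, 15 members were lower with LPS, 15 with IL1b and 13 with TNFa, and 7 were higher with TGFb. With 75th percentile scaling, 7 were lower with LPS, where the share over all probes went from 5.22% to 9.85%, and the IL6 medians were 0.63 over all classes, 0.38 for exon, 0.67 for intron and 0.70 for nc probes. For TGFb, 6 were higher and 1 lower, with medians of 0.54, -0.25, 0.66 and 0.66. Asking only that the brighter array lie above its median gave 1 higher and 8 lower with LPS and 1 higher with IL1b. It gave 9 higher and 8 lower with IL6 (exon median 0.48), and 8 higher and 8 lower with TGFb (exon -0.05, intron 0.61). With that remaining-array median as control, LPS had 2 lower and medians of -0.41 over all classes, 0.09 for exon and -0.46 for intron probes. IL1b had 3 lower and -0.44, -0.34 and -0.54, and TNFa 3 lower and -0.30, -0.28 and -0.91, with -0.25 for nc probes. IL6 had 10 higher, 2 lower and 0.85, 0.76 and 0.96, with 0.80 for nc probes, and TGFb 7 higher, 1 lower and 0.76, -0.11 and 1.04, with 0.69 for nc probes. Under that control 2 differences turned sign, to 0.47 and 0.20 for nc-HOXA4-65 with LPS and TNFa. Detection above the 99th percentile of negative control spots, chosen after seeing the data, gave 22 members with IL6, and asking it of both arrays left 2 lower with IL6. Shares over all probes at 1.5-fold, and shares and medians over all probes with the brighter-array rule or the remaining-array control, were not computed. The same holds for the percentile asked of both arrays. Background correction by normexp and a slide block were not run, since the columns used here hold no separate background and each group is 1 array.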
